A study of Mus musculus with 113 samples.

Results

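The genes described here build the contacts and the polarity of the early mouse embryo. They are 39 genes picked by name for these roles out of 24006 genes in each expression file. The rule uses no measured value, though earlier results of these data were known when the list was drawn up. They comprise 4 genes of the adherens junction, 8 of the tight junction, 7 of apical polarity, 4 of the cell cortex, 4 of basolateral polarity, 7 of keratin filaments and desmosomes, and 5 of the cell surface and matrix adhesion. All 39 symbols were found in all 92 expression files.

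At the 8-cell (8C) stage the blastomeres of the mouse embryo flatten against each other, a step called compaction that depends on E-cadherin and its catenin partners. In the same period each blastomere gains an apical domain, which carries the PAR and atypical protein kinase C proteins and the ezrin family, and a basolateral side, which carries the Scribble, Dlg and Lgl proteins. Tight junctions, keratin filaments and desmosomes are then assembled in the outer cells, which become the trophectoderm of the blastocyst. NR5A2 is an orphan nuclear receptor of the embryo, and RARG, NR1H3 and NR2C2 are nuclear receptors whose genes were knocked down beside it.

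The embryos came from superovulated C57BL/6N females mated with PWK/PhJ males and carried no engineered allele, so all groups share this hybrid background and the injection. In the siRNA experiments each library held a pool of several embryos, with 2 pools a group. The set for the quadruple knockdown (4KD) had negative control siRNA (NC) at 20 µM and 4KD embryos with siRNA at 5 µM for each of Nr5a2, Rarg, Nr1h3 and Nr2c2, at the 4-cell (4C) and 8C stages. The set for the triple knockdowns (3KD), at 8C, had NC at 15 µM and 4 mixtures at 5 µM a gene, each of which left out 1 of the 4 genes. The set for the single knockdowns (KD), at 8C, had NC and each siRNA at 5 µM. A further set at the 2-cell (2C) stage had NC and Nr5a2 KD at 20 µM. In the base editing experiment each library was 1 embryo at 2C or 8C, injected with base editor mRNA (BE) alone, single guide RNA (sgRNA) alone or both at 100 ng/µl each, with 8, 8 and 14 embryos a stage. The guide was designed to write a stop codon into Nr5a2. The share of edited cells was not analysed here, and siRNA lowers but does not remove a transcript. Nothing in the labels ties the libraries of a group to separate injection days, so the p-values measure the spread between these libraries.

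Values are FPKM, fragments per kilobase of transcript scaled to the mapped total of the library, as the authors computed them. Between 5472 and 11921 genes reached 1 FPKM in a library, and the FPKM sums ran from 83392 to 556462. Nr5a2 itself averaged 4.50 to 11.2 FPKM in the 4C and 8C groups that received its siRNA and 28.7 to 49.5 FPKM in those that did not. Single pools were less clear, and Nr5a2 stood at 3.98 and 17.6 FPKM in the 4C 4KD pools. Rarg stood at 17.6 and 2.18 FPKM in NC for 3KD and at 23.85 and 4.54 FPKM in the 3KD without Rarg siRNA. Pools that received Rarg siRNA ran from 1.61 to 5.95 FPKM. Base editing was aimed at the sequence of Nr5a2, whose transcript averaged 52.1 FPKM in edited 8C embryos against 50.0 FPKM with BE alone and 42.4 FPKM with sgRNA alone. At 2C the Nr5a2 siRNA pools averaged 4.42 FPKM against 21.9 FPKM with NC. Embryo stages were checked with 7 genes of the 2-cell burst, all of which were lower at 8C than at 2C in embryos with BE or sgRNA alone. Single libraries departed from this. The sum of these genes reached 376 FPKM in an edited 8C embryo and stood at 4.48 and 356 FPKM in the 8C Nr2c2 KD pools. In a 2C sgRNA embryo it was only 14.3 FPKM. The 12 cumulus and granulosa markers summed to at most 30.9 FPKM in any library. In 3 embryos the column name in the expression file says 4-cell where the label says 2C (sgRNA replicate 8) or 8C (BE + sgRNA replicates 13 and 14), and oocyte markers summed to 54.8 FPKM in the former against 1392 FPKM in the median of its group.

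The members spanned a wide range of levels in the control embryos, those with BE alone or sgRNA alone. At 2C the highest median was that of Crb3, the small apical transmembrane protein of the Crumbs complex, at 86.9 FPKM over 16 embryos. It was followed by Pard3, the scaffold of the PAR complex, at 69.0 FPKM and Rdx, the ezrin relative radixin, at 48.5 FPKM. These 3 medians lie well inside the spread of single embryos, which ran from 65.4 to 171 FPKM for Crb3, from 4.53 to 120 FPKM for Pard3 and from 8.41 to 85.6 FPKM for Rdx. The low ends of Pard3 and Rdx came from sgRNA replicate 8, whose column name says 4-cell. At 8C the highest medians were those of the claudins Cldn7 (87.5 FPKM) and Cldn4 (67.6 FPKM), the junctional adhesion molecule F11r (74.5 FPKM) and Crb3 (60.5 FPKM). Scrib, Dsp, Dsg2, Dsc2 and Lama1 were too low to test, with a mean under 1 FPKM at both stages. Of these, the desmosomal cadherin Dsg2 was listed at 0 in all 16 control embryos at 2C and reached at most 0.596 FPKM at 8C.

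**Figure D1:**
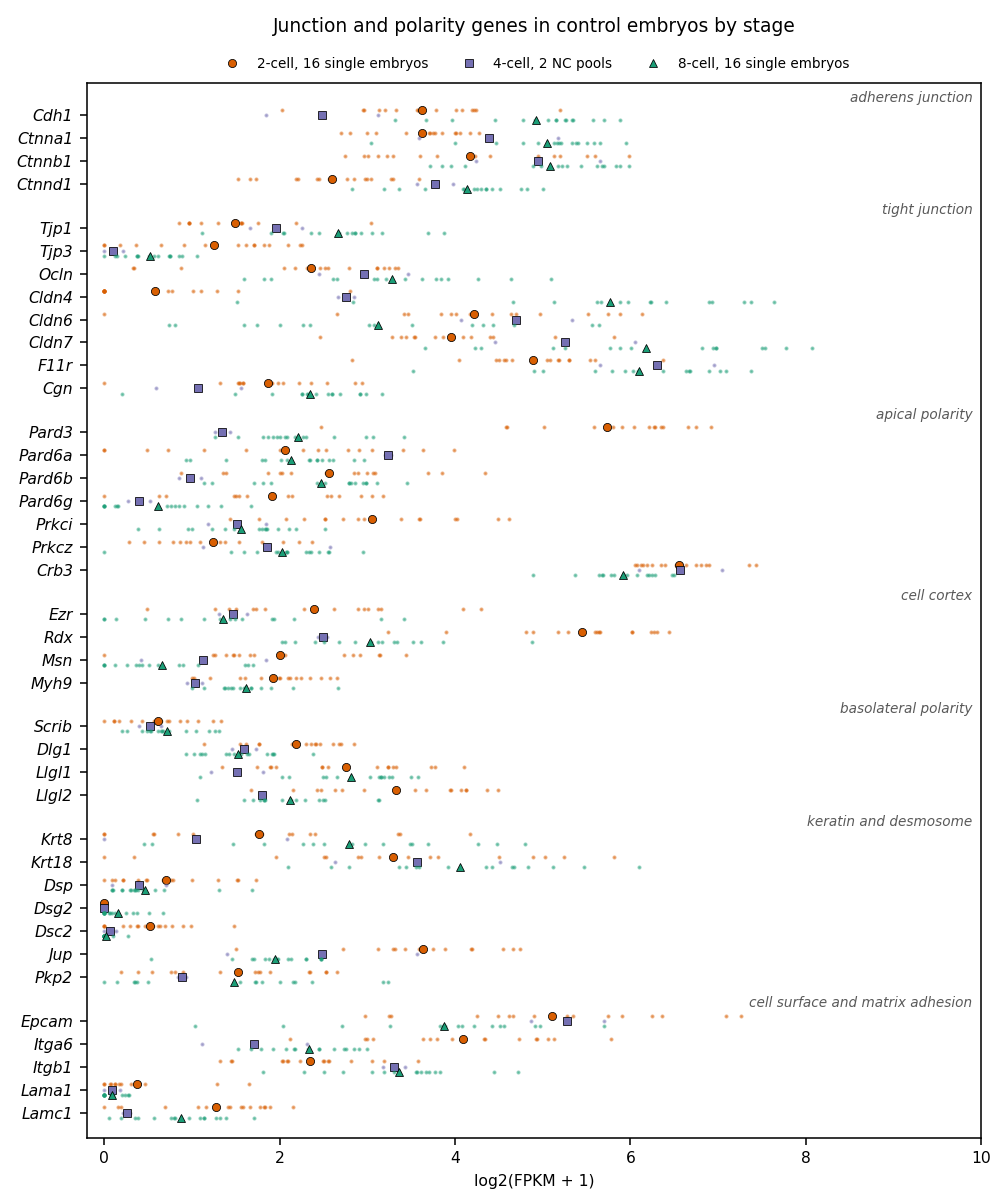
Level of each member gene in control embryos, as log2(FPKM + 1), grouped by role. Small points are libraries (16 single embryos at 2C, 2 NC pools at 4C, 16 single embryos at 8C) and the large symbols are their means. Cldn4 and Cldn7 lie far to the right at 8C, whereas Pard3 and Rdx lie far to the right at 2C.

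The first comparison asked how these genes differ between 2C and 8C in control embryos. Of the 34 members tested, 12 were higher and 14 lower at 8C (limma, adjusted p under 0.05). That is 26 of 34, or 76.5% of the members, beside 72.5% of all 12991 genes tested, so the share called is near that of all genes. Of all genes 28.9% were higher and 43.6% lower, and the counts by role below are to be read beside these shares. The median log2 difference was -0.07 over the members and -0.31 over all genes, and single differences are to be read against that general shift. Each embryo is a whole, so less RNA per cell and fewer cells that express a gene cannot be told apart in any of these comparisons.

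The 4 adherens junction genes were all higher at 8C. Cdh1, which encodes E-cadherin, ran from 3.09 (sgRNA replicate 8) through a median of 11 to 35.6 FPKM at 2C and from 8.94 through 34.6 to 58.1 FPKM at 8C. The ranges overlapped, and the mean log2 difference was 1.30 (SE 0.29, adjusted p = 9.67e-05, limma). Ctnna1, the alpha-catenin that links the cadherin complex to actin, had medians of 12.3 FPKM at 2C and 35.7 FPKM at 8C, a log2 difference of 1.42 (SE 0.25, adjusted p = 9.41e-07). Ctnnd1, the p120-catenin that holds cadherin at the membrane, had medians of 5.35 and 18.3 FPKM, a log2 difference of 1.54 (SE 0.23, adjusted p = 4.49e-08). Ctnnb1, the beta-catenin that binds the cadherin tail, had medians of 15.3 and 36.9 FPKM and rose by 0.91 on the log2 scale. The call of Ctnnb1 was lost within the BE4 run, described below, and with BE embryos alone as control, and its difference ran from 0.13 to 1.26 over 13 alternatives.

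Among the 8 tight junction genes, 5 were higher and 2 lower at 8C. The largest difference of all members was that of Cldn4, a claudin of the tight junction strand. It was listed at 0 in the median 2C embryo and at most at 5.96 FPKM, whereas the 8C embryos ran from 1.85 through 67.6 to 198 FPKM. The ranges overlapped through the lowest 8C embryo alone, and the log2 difference was 5.19 (SE 0.43, adjusted p = 2.10e-16). Cldn7, another claudin, ran from 4.52 through 14.1 to 55.3 FPKM at 2C and from 11.6 through 87.5 to 269 FPKM at 8C, a log2 difference of 2.22 (SE 0.39, adjusted p = 1.34e-06). Cldn6, a claudin of embryonic epithelia, went the other way, with medians of 18.7 FPKM at 2C and 7.26 FPKM at 8C. Its call held in 10 of 13 alternatives, over which the log2 difference ran from -2.10 to -0.10. Of the scaffolds, Tjp1 (ZO-1) had medians of 1.82 and 5.95 FPKM and was higher, while Tjp3 (ZO-3) had medians of 1.98 and 0.452 FPKM and was lower. The call of Tjp3 held in 9 of 12 alternatives. F11r, with medians of 32.5 and 74.5 FPKM, and the strand protein Ocln (occludin), with medians of 4.77 and 9.05 FPKM, were both higher at 8C. Cgn, the cytoplasmic adaptor cingulin, was not called (adjusted p = 0.0504, limma), with medians of 2.75 and 4.60 FPKM.

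Of the 7 apical polarity genes 4 were lower and 1 was higher at 8C. Pard3 ran from 4.53 through 69.0 to 120 FPKM at 2C and from 1.4 through 3.20 to 9.66 FPKM at 8C. Only the lowest 2C embryo reached the 8C range on this gene, and the log2 difference was -3.53 (SE 0.28, adjusted p = 6.48e-17, limma), the second largest of the members. That embryo was sgRNA replicate 8, whose column name says 4-cell, and the other 2C control embryos stood at 23.0 FPKM or more. Prkci, an atypical protein kinase C, had medians of 6.62 and 2.44 FPKM (log2 difference -1.49, SE 0.28, adjusted p = 3.52e-06). Its relative Prkcz had medians of 1.23 and 3.24 FPKM and was higher at 8C. The 3 PAR6 adaptors differed among themselves. Pard6g was lower (medians of 3.01 and 0.671 FPKM, log2 difference -1.30, SE 0.24, adjusted p = 2.60e-06), while Pard6a (4.11 and 4.07 FPKM) and Pard6b (5.50 and 5.94 FPKM) were not called. Crb3 ran from 65.4 through 86.9 to 171 FPKM at 2C and from 28.6 through 60.5 to 89.4 FPKM at 8C and was lower.

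At the cell cortex the 3 members of the ezrin family, which tie the membrane to actin, were all lower at 8C. Rdx ran from 8.41 through 48.5 to 85.6 FPKM at 2C and from 3.06 through 7.48 to 28.5 FPKM at 8C, a log2 difference of -2.41 (SE 0.28, adjusted p = 4.13e-11, limma). Msn, moesin, had medians of 2.22 and 0.380 FPKM (log2 difference -1.35, SE 0.25, adjusted p = 4.18e-06). Ezr, ezrin, which marks the apical domain of the 8C embryo, had medians of 4.48 and 1.60 FPKM. The call of Ezr held in 10 of 13 alternatives. Myh9, a non-muscle myosin heavy chain, was not called, with medians of 3.14 and 1.97 FPKM. On the basolateral side Dlg1 (4.02 and 1.86 FPKM) and Llgl2 (11.2 and 3.24 FPKM) were lower, and Llgl1 (6.25 and 7.48 FPKM) was not called.

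The keratin and surface genes split. Krt8, an early epithelial keratin whose reads could be split with its processed pseudogene copies, had medians of 2.42 FPKM at 2C and 6.48 FPKM at 8C and was higher, whereas its partner Krt18 (8.89 and 16.8 FPKM) was not called. The call of Krt8 held in only 8 of 13 alternatives, over which its log2 difference ran from 0.41 to 1.55. Jup, the plakoglobin of desmosomes and adherens junctions, had medians of 11.2 and 2.93 FPKM (log2 difference -1.68, SE 0.25, adjusted p = 3.34e-08, limma). Pkp2, a desmosomal plaque protein, was not called, with medians of 2.33 and 2.31 FPKM. The integrin chains diverged, with Itga6 (16.9 and 4.23 FPKM, log2 difference -1.76, SE 0.24, adjusted p = 1.94e-09) lower and Itgb1 (4.17 and 10.8 FPKM) higher. Epcam, an adhesion molecule of epithelia, was lower, with medians of 33.3 and 15.6 FPKM, and Lamc1, a laminin chain, was not called (1.83 and 0.852 FPKM).

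At the stricter limits used by the study, an adjusted p under 0.01 with a log2 difference of at least 2, 4 members were called, namely Cldn4, Pard3, Rdx and Cldn7, beside 19.0% of all genes tested. No member had libraries of the 2 stages wholly apart with all embryos kept, and Pard3 overlapped only through 2C sgRNA replicate 8. Column names mark the embryos that received editor as eBE or BE4, and the sgRNA embryos were placed with one or the other by the serial number in their column name, here called the eBE run and the BE4 run. No 2C sgRNA embryo fell in the BE4 run. Within the eBE run 26 members were called, 12 higher and 14 lower, beside 69.2% of all genes. Within the BE4 run 13 of 35 were called, 3 higher and 10 lower, beside 50.1% of all genes. Of the adherens junction genes Ctnnd1 alone was called in the BE4 run, and there the log2 differences of Cdh1 (1.01, adjusted p = 0.0841, limma), Ctnna1 (0.62, adjusted p = 0.256) and Cldn7 (1.41, adjusted p = 0.0911) were not called. The 8C sgRNA embryos of this run had FPKM sums of 207918 to 268257, against 413397 to 474480 in the other 8C control embryos. The part of these low sums in the lost calls was not tested. Under quantile normalization the split was 13 higher and 11 lower. Of 50 further junction and polarity genes that are not members, 45 were tested, of which 14 were higher and 20 lower with a median log2 difference of -0.44. The largest differences among them were those of Slc9a3r1, an ezrin partner (-3.55), Pkp4 (-2.99) and the basement membrane gene Nid1 (2.80).

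Pools with NC from the 4KD set gave a second view of the last cleavage before compaction, 4C against 8C. No member was called among 32 tested, beside 0.0% of all genes, and 8 members had an unadjusted p under 0.05 (7.41% of all genes did). With 2 pools a stage, 10 members had both 8C pools above both 4C pools, beside 16.2% of all genes, and 3 had both below, beside 19.1%. Cldn4 was at 6.19 and 5.36 FPKM at 4C and at 63.3 and 23.2 FPKM at 8C, with a log2 difference of 2.55 (SE 0.54, adjusted p = 0.282, limma). The next differences in order of p were those of Pard6b (1.73, SE 0.49, adjusted p = 0.459), Cgn (1.70, SE 0.53, adjusted p = 0.518), Pkp2 (1.49, SE 0.50, adjusted p = 0.557) and Llgl1 (1.38, SE 0.48, adjusted p = 0.578). Pard6b pools stood at 0.801 and 1.14 FPKM at 4C and at 5.49 and 5.51 FPKM at 8C, without overlap. Cdh1 pools stood at 7.68 and 2.59 FPKM at 4C and at 12.3 and 14.3 FPKM at 8C. By contrast Pard3, high at 2C, was already at 1.39 and 1.69 FPKM in the 4C pools and at 3.01 and 2.42 FPKM in the 8C pools.

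Nr5a2 knockdown was next compared with knockdown of the other receptors, and 6 members that carry that result are shown first by their promoters. The 150 bases directly before the first RefSeq start site of each (GRCm38.p6, written on the strand of the gene) are given because these genes are the ones called together. Capitals mark the hexamer CACCTG on either strand, which reads CAGGTG on the other and is one form of the wider E-box.
Ocln, chr13:100552719-100552868, minus strand: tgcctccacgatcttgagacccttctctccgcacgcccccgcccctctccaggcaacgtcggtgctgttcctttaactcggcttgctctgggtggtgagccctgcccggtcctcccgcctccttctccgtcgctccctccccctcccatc
Cldn4, chr5:134946935-134947084, minus strand: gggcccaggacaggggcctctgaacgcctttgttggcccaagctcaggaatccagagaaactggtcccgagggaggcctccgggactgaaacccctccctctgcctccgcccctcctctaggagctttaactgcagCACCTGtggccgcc
Cgn, chr3:94786483-94786632, minus strand: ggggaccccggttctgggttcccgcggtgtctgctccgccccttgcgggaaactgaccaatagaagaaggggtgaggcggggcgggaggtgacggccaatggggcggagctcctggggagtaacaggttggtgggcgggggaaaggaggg
Pard6b, chr2:168080854-168081003, plus strand: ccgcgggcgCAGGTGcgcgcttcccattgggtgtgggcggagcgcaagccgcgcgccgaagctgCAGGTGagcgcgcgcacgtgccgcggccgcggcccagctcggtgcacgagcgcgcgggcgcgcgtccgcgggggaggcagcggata
Prkcz, chr4:155361429-155361578, minus strand: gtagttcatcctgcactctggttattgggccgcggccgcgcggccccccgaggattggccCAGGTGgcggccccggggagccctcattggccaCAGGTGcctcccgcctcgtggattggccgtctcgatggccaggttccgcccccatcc
Krt8, chr15:102004343-102004492, minus strand: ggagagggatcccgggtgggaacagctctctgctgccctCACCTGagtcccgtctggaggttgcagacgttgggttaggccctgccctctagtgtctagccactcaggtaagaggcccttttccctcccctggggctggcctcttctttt
The hexamer, which was chosen after the windows had been read, occurred in the 250 bases before the start in 13 of the 28 members with a RefSeq window (46.4%) and in 19.4% of all genes. The core motif of NR5A2, CAAGGNCA on either strand, occurred in 0 of 42 windows of these members, which also hold the first 50 transcribed bases, and in 6.71% of all 32851 windows. These shares describe letters only. The windows are much narrower than the promoters defined in the study, and bases outside them were not searched.

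In the build of the deposited files, mm9, Ocln lies on the minus strand at chr13:101266462-101322673, Cldn4 on the minus strand at chr5:135420996-135422804 and Cgn on the minus strand at chr3:94464507-94590414. Pard6b lies on the plus strand at chr2:167906504-167926703, Prkcz on the minus strand at chr4:154634238-154735470 and Krt8 on the minus strand at chr15:101827142-101834773, as annotated by GENCODE.

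In the single knockdown set, Nr5a2 KD pools had lower values than NC for several tight junction and polarity genes, though none was called. Genes at large also tended lower, with 243 of the 279 genes called being lower. Among 32 members tested 0 were called, beside 2.75% of all genes, and 8 had an unadjusted p under 0.05 (18.1% of all genes did). Both Nr5a2 KD pools lay below both NC pools in 14 members, beside 33.1% of all genes, and above them in 3, beside 12.9%. The median log2 difference was -0.29 over the members and -0.22 over all genes. Ocln was at 8.14 and 11.6 FPKM in the NC pools and at 2.87 and 1.60 FPKM in the Nr5a2 KD pools, a log2 difference of -1.76 (SE 0.45, adjusted p = 0.0663, limma). Pard6b was at 5.88 and 7.55 FPKM against 1.5 and 1.94 FPKM (-1.5, SE 0.38, adjusted p = 0.0651), and Cldn4 was at 95.9 and 138 FPKM against 34.7 and 16.2 FPKM (-2.22, SE 0.62, adjusted p = 0.0851). In all 3 genes the groups did not overlap. Pard3 (-1.42, SE 0.55, adjusted p = 0.198) and Krt8 (1.86, SE 0.76, adjusted p = 0.224) came next. Krt8 stood at 6.03 and 3.78 FPKM with NC and at 20.0 FPKM in both Nr5a2 KD pools.

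Knockdown of the other receptors, measured against the same NC pools, called no member. For Rarg KD no member had an unadjusted p under 0.05, and 0.00984% of all genes were called. For Nr1h3 KD the count was again 0, with 0.00984% of all genes called. For Nr2c2 KD, where 0.0787% of all genes were called, 1 member had an unadjusted p under 0.05, Cldn4, at 15.6 and 65.2 FPKM (log2 difference -1.81, SE 0.62, adjusted p = 0.930, limma). Cldn4 was also below its NC pools in both Rarg KD pools (42.4 and 89.1 FPKM) and both Nr1h3 KD pools (86.4 and 64.9 FPKM). Both Nr2c2 KD pools lay below the NC pools as well. Pard6b was below its NC pools in Nr1h3 KD (4.82 and 4.41 FPKM) and Nr2c2 KD (3.42 and 5.23 FPKM). In Rarg KD it stood at 6.32 and 8.39 FPKM. Both pools lay below both NC pools in 3 members for Rarg KD, 9 for Nr1h3 KD and 12 for Nr2c2 KD. The shares of all genes were 19.6%, 18.9% and 33.9%. Both lay above in 2, 2 and 1 members, beside 11.6%, 18.0% and 6.38% of all genes.

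Set directly against the other 3 single knockdowns, Nr5a2 KD lowered 1 member at the threshold, Ocln, beside 3.95% of all genes. Ocln was at 2.87 and 1.60 FPKM in Nr5a2 KD and at 6.12 to 21.9 FPKM in the 6 other pools, without overlap (log2 difference -1.83, SE 0.37, adjusted p = 0.0199, limma). This call held in 7 of 14 alternative analyses, in which its adjusted p ran from 0.0106 to 0.122, and it was lost without either Nr5a2 KD pool, either Nr1h3 KD pool, Rarg KD replicate 2 or Nr2c2 KD replicate 2. Pard6b (-1.20, SE 0.31, adjusted p = 0.0578), Krt8 (2.05, SE 0.62, adjusted p = 0.0939), Epcam (0.98, SE 0.39, adjusted p = 0.198) and Pard3 (-1.09, SE 0.45, adjusted p = 0.212) were not called. Pard6b was at 1.5 and 1.94 FPKM in Nr5a2 KD and at 3.42 to 8.39 FPKM in the 6 other pools. Both Nr5a2 KD pools lay below all 6 others in 3 members, beside 13.7% of all genes, and above in 1, beside 5.67%.

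In the 3KD set each mixture was compared with the NC pools of that set, and no member was called in any of the 4. The share of all genes called was 0.0% for the mixture that lacked Nr5a2 siRNA, 0.0565% for that lacking Rarg, 0.00941% for that lacking Nr1h3 and 0.0% for that lacking Nr2c2. Unadjusted p was under 0.05 for 2, 4, 1 and 7 of 31 members in that order. The median log2 difference of the members was 0.38, 0.23, 0.51 and 0.30, beside 0.11 to 0.13 for all genes. Krt8 was at 2.82 and 2.42 FPKM with NC, at 11.4 and 3.77 FPKM where Nr5a2 siRNA was lacking, at 22.6 and 9.50 FPKM where Rarg, at 44.8 and 17.3 FPKM where Nr1h3 and at 48.3 and 21.5 FPKM where Nr2c2 siRNA was lacking. All 8 pools with a mixture were above both NC pools. The log2 differences of Krt8 were 1.09, 2.12, 3.00 and 3.20 (SE 0.68 each), with adjusted p = 1.00, 0.492, 0.267 and 0.210 (limma). Same-numbered pools of this set deviated together. When that number entered the fit as a block, Krt8 was called in the mixtures lacking Nr1h3 siRNA (adjusted p = 0.0191, beside 0.329% of all genes) and Nr2c2 siRNA (adjusted p = 0.00940, beside 0.612%).

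The mixture without Nr5a2 siRNA was then compared with the other 3. No member was called, beside 0.282% of all genes, whereas under the replicate block Krt8 (adjusted p = 0.0243, limma) and Cldn4 (adjusted p = 0.0449) were called, beside 2.47%. Unadjusted p was under 0.05 for 5 members and for 10.1% of all genes. Without Nr5a2 siRNA Prkcz was at 3.93 and 3.46 FPKM, and with it, in the 6 other 3KD pools, at 0.124 to 1.33 FPKM (log2 difference 1.41, SE 0.42, adjusted p = 0.234, limma). Krt8 (-1.69, SE 0.56, adjusted p = 0.294), Cldn4 (1.37, SE 0.45, adjusted p = 0.294), Pard6b (1.48, SE 0.50, adjusted p = 0.312) and Cgn (1.41, SE 0.51, adjusted p = 0.345) followed. Pard6b was at 7.71 and 3.85 FPKM without Nr5a2 siRNA and at 0.709 to 2.42 FPKM in the 6 other pools. Cgn was at 9.21 and 5.25 FPKM without it and at 1.10 to 3.35 FPKM with it. Ocln was at 12.4 and 15.4 FPKM without it and at 3.84 to 16.2 FPKM with it, with overlap. Both pools without it lay above the 6 others in 4 members, beside 8.59% of all genes, and below in 1, beside 5.81%.

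The question of whether Nr5a2 siRNA differs from the other siRNA was therefore also put to both sets together, as the mean of the 2 differences within sets, Nr5a2 KD minus the other single knockdowns and the 3KD with Nr5a2 siRNA minus the 3KD without it. This comparison was added after the separate results had been seen. It called 6 of 32 members, 5 lower and 1 higher with Nr5a2 siRNA, or 18.8% beside 6.85% of all genes (4.77% lower and 2.08% higher). The 5 lower genes were Ocln, Pard6b, Prkcz, Cgn and Cldn4, of which 3 are tight junction genes and Pard6b and Prkcz encode partners in the PAR complex. The higher gene was Krt8. Under median-ratio scaling 3 were lower and 3 higher, with Cldn7 and Epcam among the latter, and under quantile normalization 4 were lower and 2 higher. Of the 50 other junction and polarity genes 42 were tested and 2 were lower, Epb4.1l5 (-1.33) and Krt7 (-1.18).

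**Figure D2:**
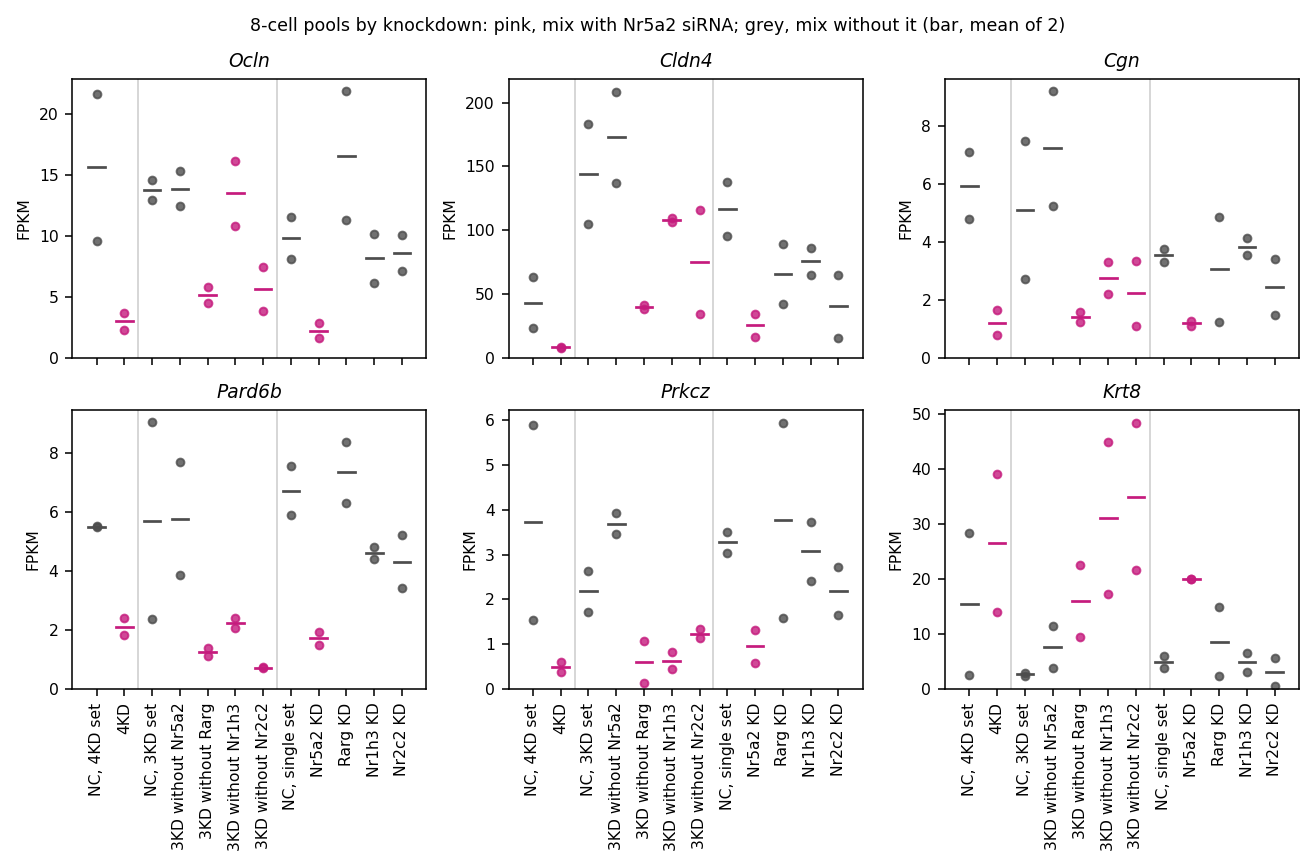
FPKM of the 6 called members in the 24 pools at 8C, by knockdown group, with 2 pools a group and a bar at their mean. Pink marks the groups whose mix held Nr5a2 siRNA and grey the others, and vertical lines divide the 4KD, 3KD and single KD sets. In Prkcz every pink point lies below every grey point, from 0.124 to 1.33 FPKM against 1.55 to 5.94 FPKM.

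Ocln differed by -1.34 on the log2 scale (SE 0.27, adjusted p = 0.00509, limma) and was called in 22 of 22 alternatives. Over all 24 pools at 8C, the 4KD set included, it ran from 1.60 to 16.2 FPKM in the 10 pools with Nr5a2 siRNA and from 6.12 to 21.9 FPKM in the 14 without. The overlap came from the 3KD without Nr1h3 siRNA, at 16.2 and 10.8 FPKM, and from 1 pool without Nr2c2 siRNA, at 7.49 FPKM. Cldn4 differed by -1.25 (SE 0.36, adjusted p = 0.0476), ran from 7.70 to 116 FPKM with Nr5a2 siRNA and from 15.6 to 209 FPKM without it, and was called in 5 of 22 alternatives. Cgn differed by -1.12 (SE 0.32, adjusted p = 0.0462), ran from 0.773 to 3.35 FPKM with it and from 1.25 to 9.21 FPKM without it, and was called in 6 of 22.

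Pard6b differed by -1.34 (SE 0.29, adjusted p = 0.00817, limma). It ran from 0.709 to 2.42 FPKM with Nr5a2 siRNA and from 2.36 to 9.05 FPKM without it, so the groups met at 1 NC pool, and it was called in 21 of 22 alternatives. Prkcz differed by -1.19 (SE 0.29, adjusted p = 0.0167) and was called in 19 of 21. It was the 1 member whose 24 pools did not overlap, beside 0.91% of all genes that lay wholly lower and 0.234% that lay wholly higher. Krt8 differed by 1.87 (SE 0.45, adjusted p = 0.0169), ran from 9.50 to 48.3 FPKM with it and from 0.601 to 28.3 FPKM without it, and was called in 18 of 22. Without 1 of the pools of the 3KD without Nr5a2 siRNA, 2 (replicate 1) or 3 (replicate 2) members were called, and without 1 of the Nr5a2 KD pools 3 (replicate 1) or 2 (replicate 2).

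Summed levels of oocyte markers and of cumulus and granulosa markers also differed along this division in the 3KD and single KD sets. The summed level of 8 oocyte markers was 87.3 to 135 FPKM in the Nr5a2 KD pools and 36.2 to 47.9 FPKM in their NC, and 95 to 190 FPKM in the 3KD with Nr5a2 siRNA against 30.1 to 61.9 FPKM in the 3KD without it. In the single knockdowns of the other receptors it was 37.2 to 71.2 FPKM, and in the 4KD set it overlapped, at 51.5 to 79.9 FPKM in 4KD and 43.6 to 68.2 FPKM in NC at 8C. Over both sets Zp3 (1.76) and Zp2 (1.03) were called higher, while 5 of the 8 markers had a negative log2 difference and their median was -0.19. The sum of 12 cumulus and granulosa markers did not overlap, at 0 to 0.724 FPKM in the 10 pools with Nr5a2 siRNA and 0.96 to 11.8 FPKM in the 14 without. In the NC pools at 8C, 11 of these 12 markers were listed at 0, and the 1 marker tested, Hsd17b1, was called lower over both sets (-1.72, adjusted p = 0.00747, limma). The part of either list in the differences of the 6 genes was not tested.

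In the 4KD embryos no member was called at either stage. At 4C, 0 of 32 members were called, beside 0.0% of all genes, and 0 had an unadjusted p under 0.05. Both 4KD pools lay above both NC pools in 6 members and below in 5, beside 14.7% and 15.3% of all genes. The differences with the smallest p were those of Krt18 (-1.70, SE 0.85), Krt8 (2.00, SE 1.02), Cldn6 (1.07, SE 0.59), Rdx (0.74, SE 0.46) and Llgl2 (0.86, SE 0.58), each with adjusted p = 0.909 (limma). Krt8 pools at 4C stood at 3.24 FPKM and listed at 0 with NC and at 8.19 and 6.39 FPKM in 4KD.

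At 8C, 0 of 32 members were called in 4KD, beside 0.0% of all genes, and 7 had an unadjusted p under 0.05 (7.48% of all genes did). Both 4KD pools lay below both NC pools in 11 members, beside 19.2% of all genes, and above in 3, beside 18.1%. Cldn4 was at 63.3 and 23.2 FPKM with NC and at 7.70 and 8.48 FPKM in 4KD (log2 difference -2.12, SE 0.54, adjusted p = 0.333, limma). Ocln was at 9.62 and 21.7 FPKM against 2.30 and 3.69 FPKM (-1.98, SE 0.57, adjusted p = 0.402), and Cgn at 7.10 and 4.79 FPKM against 1.66 and 0.773 FPKM (-1.66, SE 0.53, adjusted p = 0.446). In these genes the 2 groups did not overlap. Pkp2 (-1.45, SE 0.50, adjusted p = 0.480) and Crb3 (-1.34, SE 0.47, adjusted p = 0.496) followed, with Crb3 at 110 and 78.7 FPKM against 47.2 and 27.7 FPKM. Cdh1 was at 12.3 and 14.3 FPKM with NC and at 9.78 and 11.5 FPKM in 4KD. The test of whether the 4KD difference changed from 4C to 8C called 0 members, beside 0.0% of all genes, with 2 at an unadjusted p under 0.05. Its smallest p values were those of Rdx (-1.66, SE 0.65), Cldn4 (-1.91, SE 0.77), Krt18 (2.31, SE 1.20), Ocln (-1.51, SE 0.80) and Cgn (-1.16, SE 0.75), each with adjusted p = 1.00 (limma).

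**Figure D3:**
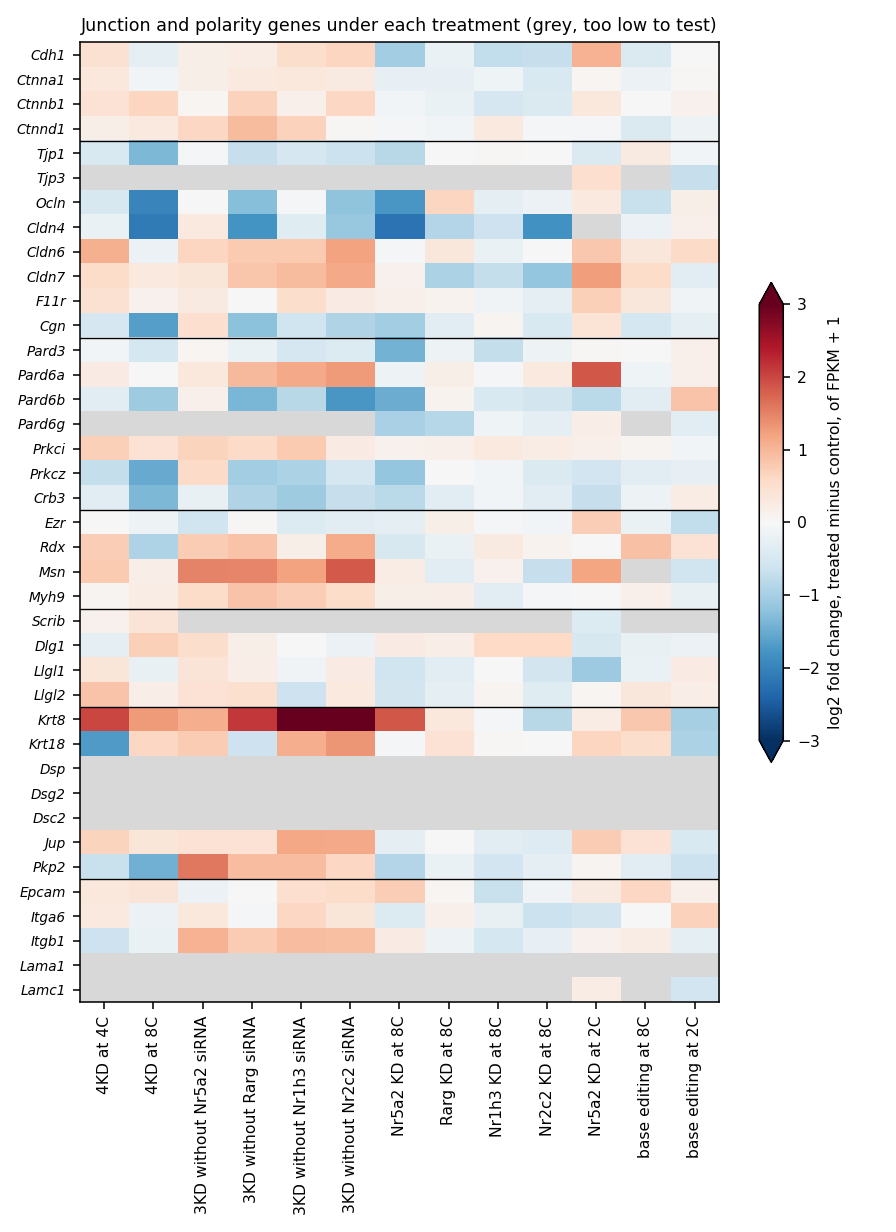
Log2 fold change, treated minus control on log2(FPKM + 1), of the member genes in 13 treatments, from blue (lower) to red (higher), with horizontal lines between the roles and grey for members too low to test. Ocln, Cldn4, Cgn, Pard6b and Prkcz are blue in 4KD at 8C and in Nr5a2 KD at 8C. Krt8 is red in all 4 triple mixtures, from 1.09 without Nr5a2 siRNA to 3.20 without Nr2c2 siRNA, and no member passed the threshold in any single column.

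At 2C, Nr5a2 KD called 0 of 34 members, beside 0.0167% of all genes, and 2 had an unadjusted p under 0.05 (4.67% of all genes did). Pard6a (1.85, SE 0.57), Msn (1.19, SE 0.48), Llgl1 (-1.08, SE 0.48), Cdh1 (1.04, SE 0.47) and F11r (0.71, SE 0.37) had the smallest p, each with adjusted p = 0.890 (limma). Cdh1 was at 4.68 and 9.47 FPKM with NC and at 16.2 and 13.6 FPKM in Nr5a2 KD. Among the genes that differed with Nr5a2 siRNA at 8C, Ocln stood at 6.26 and 2.15 FPKM with NC and at 7.39 and 3.03 FPKM in Nr5a2 KD, and Pard6b at 5.31 and 2.14 FPKM against 1.80 and 1.29 FPKM. The Ocln pools overlapped and those of Pard6b did not. Both Nr5a2 KD pools lay below both NC pools in 7 members, beside 8.28% of all genes, and above in 7, beside 27.3%.

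Base editing of Nr5a2 was compared with the BE and sgRNA controls together. At 8C, 0 of 30 members were called, beside 0.164% of all genes, and 2 had an unadjusted p under 0.05 (10.8% of all genes did). Rdx ran from 2.86 through a median of 14.7 to 29.0 FPKM in BE + sgRNA embryos, from 3.06 through 8.28 to 28.5 FPKM with BE and from 3.18 through 5.46 to 11.2 FPKM with sgRNA. These ranges overlapped (log2 difference 0.89, SE 0.27, adjusted p = 0.238, limma). Cgn had medians of 2.84 FPKM in edited embryos, 5.26 FPKM with BE and 4.17 FPKM with sgRNA (-0.52, SE 0.23, adjusted p = 0.399). Ctnnd1 (-0.44, SE 0.22, adjusted p = 0.476), Jup (0.44, SE 0.24, adjusted p = 0.532) and Ocln (-0.67, SE 0.36, adjusted p = 0.535) followed.

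The genes that differed with Nr5a2 siRNA were not called in edited 8C embryos. Ocln ran from 0 through 5.29 to 21.7 FPKM in edited embryos, from 5.28 through 12 to 33.2 FPKM with BE and from 2.02 through 6.37 to 18.2 FPKM with sgRNA. The 0 was in BE + sgRNA replicate 8, which had the lowest FPKM sum (83392) and the fewest genes at 1 FPKM (5472) of all libraries. The next lowest edited embryo stood at 1.75 FPKM. Prkcz had medians of 2.23, 3.06 and 3.98 FPKM, Pard6b of 4.56, 5.32 and 6.10 FPKM, Cldn4 of 57.2, 68.1 and 60.9 FPKM and Krt8 of 13.3, 6.36 and 6.48 FPKM in the same order. Each of these ranges overlapped between edited and control embryos. Summed oocyte markers at 8C had a median of 83.9 FPKM in edited embryos, 32.2 FPKM with BE and 29.6 FPKM with sgRNA. Cumulus and granulosa markers summed to medians of 0.508, 3.19 and 1.75 FPKM in that order. In each of these groups 11 of the 12 markers stayed under 1 FPKM in every embryo. Hsd17b1, the 1 marker of this list tested, was called lower (-1.11, adjusted p = 0.0461, limma). The part of these lists in the values above was not tested.

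**Figure D4:**
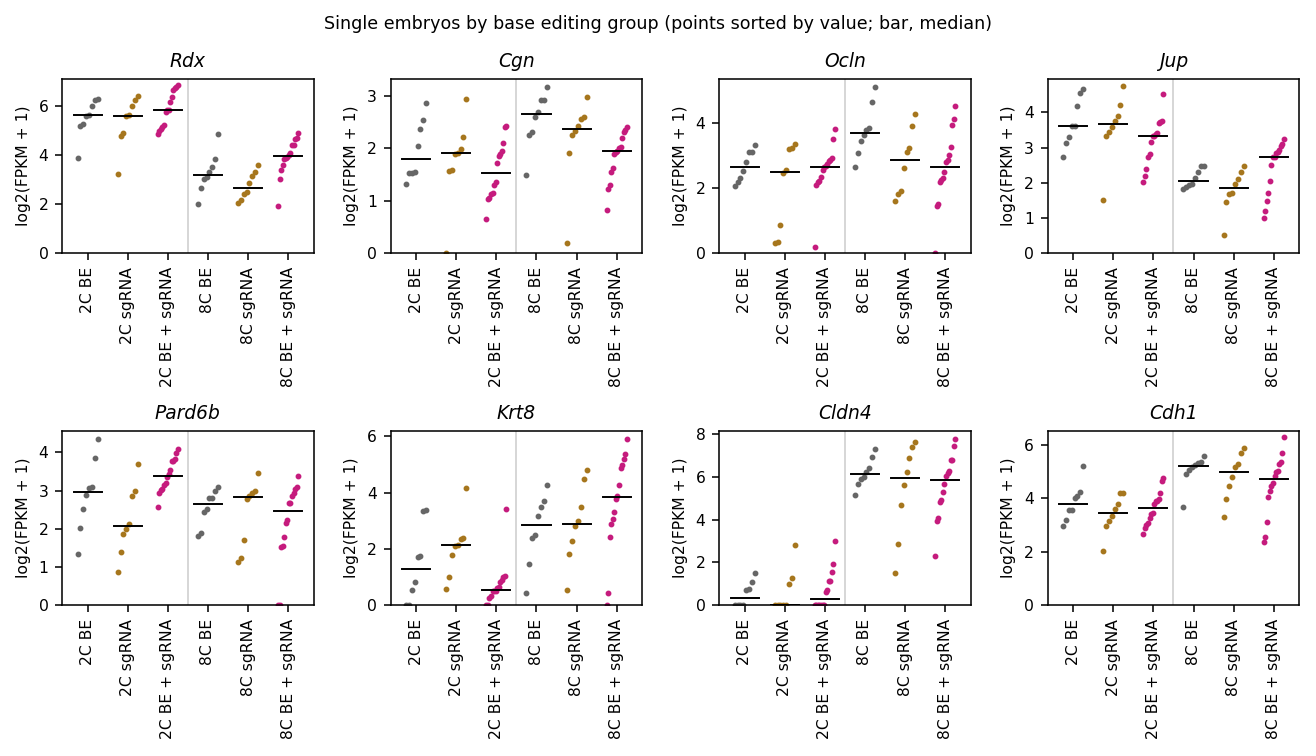
Log2(FPKM + 1) of 8 member genes in single embryos by base editing group, at 2C on the left of each panel and at 8C on the right, with embryos sorted by value and a bar at the median (8 embryos with BE, 8 with sgRNA, 14 with both). Cldn4 is higher and Rdx lower at 8C. Edited embryos overlap both control groups in every panel.

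At 2C, 0 of 34 members were called under base editing, beside 0.00805% of all genes, and 7 had an unadjusted p under 0.05 (11.6% of all genes did). Pard6b had medians of 9.48 FPKM in edited embryos, 6.89 FPKM with BE and 3.20 FPKM with sgRNA (log2 difference 0.85, SE 0.28, adjusted p = 0.258, limma). Krt8 had medians of 0.477, 1.55 and 3.36 FPKM (-1, SE 0.36, adjusted p = 0.301). Tjp3 (-0.68, SE 0.25, adjusted p = 0.309), Lamc1 (-0.57, SE 0.23, adjusted p = 0.328) and Itga6 (0.69, SE 0.29, adjusted p = 0.368) followed. The test of whether the editing difference changed from 2C to 8C called 0 members, beside 0.0385% of all genes, with 3 at an unadjusted p under 0.05. Krt8 (1.81, SE 0.65) and Pard6b (-1.17, SE 0.43) had the smallest p, each with adjusted p = 0.322 (limma). Within the BE4 run, whose 2C embryos lack the sgRNA control, the difference of Pard6b at 2C was -0.29 and that of Itga6 -0.15, and at 8C that of Jup was -0.08, each opposite in sign to the value over both runs.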

How the data were processed

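RNA of 92 embryo libraries was measured by paired-end Smart-seq2. Per the methods, the authors aligned reads with TopHat to mm9 and deposited 1 file of FPKM values per library, made with Cufflinks and refFlat genes. No counts or strand setting were used, so the depth behind a single value is unknown, though the smallest FPKM of low genes put the libraries at 0.366 to 1.52 times a common depth. The other 21 samples of the series (CUT&RUN, ATAC-seq and embryonic stem cells) were not used here.

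Each comparison was fitted with limma 3.58.1 (R 4.3.3; moderated test with an intensity trend, 2-sided) on log2(FPKM + 1) over all genes with a mean of at least 1 FPKM in 1 group of the fit, with Benjamini-Hochberg adjustment over all of them and a threshold of 0.05. Fold changes are on that scale, which understates the change of low genes. The 4KD, 3KD, single KD, 2C siRNA and embryo sets were fitted separately, except in the comparison over both sets. There the 3KD and single KD pools shared 1 fit, over 11105 genes. In all there were 20 comparisons, of which the one over both sets was added after the data had been seen. Comparisons within a set share their controls. Labels number the pools 1 and 2, and same-numbered pools correlated in all 10 pairs of groups of the 3KD set (0.278 to 0.513), where blocked values are given. Genes and lists were chosen with earlier results of these data known. Any member may be named. A fold change with its SE is given for called members, at most the 12 largest in a comparison, or for the 5 of smallest p where fewer are called, and other lists by count and their 3 largest genes. Alternatives were a pseudocount of 0.1, no filter, a minimum of 5 FPKM, median-ratio scaling, quantile normalization, the replicate number as a block, single pools left out, each control alone, each run alone and the 3 embryos with 4-cell column names left out. The scripts were tested on simulated data. Promoters are RefSeq windows, which 28 of the 39 members had.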

Additional observations from a re-analysis of the deposited data

Results flagged for a closer look

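Single embryos that stand apart from the other 7 of their group were found in 12 of 145 gene and group combinations (8.28%), where about 1 in 20 is expected by chance. At 8C these were Cdh1 in BE replicate 7, at 11.7 FPKM against 29.2 to 46.5 FPKM in the others, Cgn and Crb3 in sgRNA replicate 7, at 0.148 and 28.6 FPKM, and Prkcz in sgRNA replicate 6, listed at 0. At 2C they were Cldn4 (5.96 FPKM) and Dsc2 (1.78 FPKM) in sgRNA replicate 7, Cldn7 in BE replicate 1 (55.3 FPKM), Rdx in BE replicate 2 (13.9 FPKM), Lama1 in BE replicate 5 (2.14 FPKM) and in sgRNA replicate 1 (1.43 FPKM), and Cgn (listed at 0) and Jup (1.83 FPKM) in sgRNA replicate 8. That last embryo is one of the 3 whose column name says 4-cell. Only the groups of 8 embryos were screened, so the BE + sgRNA groups of 14 were left out. The chance rate holds for independent values, whereas several flags share an embryo.

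A difference between knockdown groups was called for Ocln between Nr5a2 KD and the other single KD (log2 difference -1.83). Over both sets it was called for Ocln (-1.34), Pard6b (-1.34), Cldn4 (-1.25), Prkcz (-1.19), Cgn (-1.12) and Krt8 (1.87), in the comparison that was added after the data had been seen.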

How the results depend on the processing

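Of the counts of called members under an alternative, 220 stayed within 1.5 times the count reported and 20 did not. A count of 0 that stayed at 0 is among the 220, and most comparisons called 0 members. The tally therefore says little about how stable the calls themselves were. For 8C against 2C the 26 members called became 17 with sgRNA embryos alone as control and 13 within the BE4 run. The replicate block, whose numbers are shared labels with only 2 numbers a group, called 1 member in the 3KD without Nr1h3 siRNA, 1 in the 3KD without Nr2c2 siRNA (Krt8 in both) and 2 in the 3KD without Nr5a2 siRNA against the other 3KD (Cldn4 and Krt8), where none was called without it. Same-numbered pools of the 3KD set deviated together (correlations 0.278 to 0.513 between groups), those of the single KD set hardly (-0.040 to 0.141). In the 4KD set the correlations were 0.336 at 8C and 0.346 at 4C within a stage and -0.297 to -0.271 across stages, and the block within each stage called 0 members. For Nr5a2 KD at 8C, a minimum of 5 FPKM called 1 member, Ocln, whereas with 1 pool left out the member called, if any, was Crb3. For Nr5a2 KD against the other single KD, a pseudocount of 0.1 called 2 members, no filter 0 and median-ratio scaling 2 (1 higher, 1 lower). With 1 pool left out of that comparison, the member called, if any, was Ocln or Crb3. For both sets together, no filter called 3, and leaving out 1 pool 2 to 6. Within the BE4 run 4 single values turned sign under base editing, Jup at 8C (-0.078), Pard6b (-0.29) and Itga6 (-0.15) at 2C and Pard6b at 8C minus 2C (0.14). The cause of these changes was not tested. FPKM values carry no depth per gene.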
